A study of Homo sapiens with 2 samples.

Results

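RAB proteins form the largest branch of the RAS superfamily of small GTPases. Each is anchored to particular membranes by lipid tails at its C terminus and, when bound to GTP, recruits the motors, tethers and enzymes that move vesicles and let them fuse. Exchange factors load GTP, TBC domain proteins trigger its hydrolysis, and GDP dissociation inhibitors carry the GDP-bound form through the cytosol. In secretory epithelia such as that of the stomach, RAB proteins are known for regulated exocytosis, apical recycling and cell polarity.

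The RAB genes were taken by name. A gene was a member if the platform annotation gives it the symbol RAB, a number and at most 1 further letter, on a probe set that names no other gene. This gave 57 of the 19775 genes read, through 138 probe sets, and the naming rule uses no measured value. Symbols came from the platform's annotation and needed no update. Each gene took the value of the probe set that was brightest over both arrays on the log2 scale.

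The study set MKN28 gastric cancer cells labelled as overexpressing Sox2, a transcription factor known from stem cells and the foregut, against MKN28 cells labelled as control. There was 1 array of each. Cell line registers list MKN28 as a misidentified line derived from MKN74, another gastric cancer line. The labels give both samples the same treatment text, a lentivirus carrying Sox2 with puromycin selection, and do not say what the control cells received, or whether a clone or a mixed culture was used. Growth in RPMI1640 with serum was shared by both samples. Values are array intensities in arbitrary units, and a difference is the log2 intensity of the Sox2 array minus that of the control array, each array being named by its label.

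With no replicates, no difference here has a replicate error or a test. A gene was counted as different when its intensities differed at least 2-fold, that is by 1 on the log2 scale. Genes entered the counts when the higher of their intensities was at least 34.25, the middle value of all probe sets. Where 2 probe sets of 1 gene both passed this filter, their differences implied a robust SD of 0.28 for 1 probe set, from 3471 genes. This technical spread leaves out variation between cultures and arrays. In bulk RNA, fewer cells with a transcript and less of it in each cell cannot be told apart.

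The arrays could not be checked through their target gene. The brightest SOX2 probe set read 172 in the Sox2 array and 123 in the control array, and the other 3 differed by 0.31, -0.02 and -0.46. All directions therefore rest on the labels. Of the epithelial markers, EPCAM was read under the filter, at 4.96 and 6.32, while CDH1, KRT8, KRT18 and KRT19 lay between 37.7 and 91.3 over both arrays. CDH1 differed by -0.22, KRT8 by 0.17, KRT18 by -0.34 and KRT19 by 0.11. All 5 mesenchymal markers passed the filter, 1 of them at least 2-fold higher in the Sox2 array. That was ZEB2, a repressor of epithelial genes, at 299 and 137 (1.12), with 0.96, 0.65 and -0.06 by its other probe sets past the filter. VIM, a filament protein, read 5833 and 4288 (0.44), FN1, fibronectin, 162 and 216 (-0.41), CDH2 243 and 248 (-0.03) and ZEB1 34.7 and 32.0 (0.12). The part of these differences in those of RAB genes was not tested. Of the 5 leukocyte and endothelial markers with a probe set, 3 passed the filter, CD3E, PECAM1 and CDH5, at 65.3 to 82.0. The epithelial markers past the filter, at 37.7 to 91.3, lay near or below these, so their levels do not mark the cells as epithelial. The poly-A spike-ins, added to RNA before labelling, read lower in the Sox2 array by a median of -0.75 over 24 probe sets. Gene values were not scaled on them, and scaling on them would raise every RAB difference by the size of that median.

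The results on RAB genes turned on RAB14 and RAB5A, the members counted as higher, and RAB5C, the member with the largest difference downward. All 3 act on early endosomes. Their promoters are shown to give the sequence from which each is transcribed; the arrays do not measure promoter activity. These are the 250 bases before the annotated start, 5′ to 3′, from RefSeq (GRCh38.p14). RAB14 lies on the minus strand at chr9:121201870-121202119, RAB5A on the plus strand at chr3:19946847-19947096 and RAB5C on the minus strand at chr17:42154990-42155239. Capitals mark matches on either strand to GGGCGG, the GC box, and to ACAATG or ACAAAG, short forms of the site that SOX proteins bind.
RAB14: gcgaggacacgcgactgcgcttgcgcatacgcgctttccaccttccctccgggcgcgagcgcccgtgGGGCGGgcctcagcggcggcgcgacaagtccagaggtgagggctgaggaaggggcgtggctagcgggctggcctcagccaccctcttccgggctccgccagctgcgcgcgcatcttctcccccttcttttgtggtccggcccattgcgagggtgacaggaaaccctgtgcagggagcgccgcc
RAB5A: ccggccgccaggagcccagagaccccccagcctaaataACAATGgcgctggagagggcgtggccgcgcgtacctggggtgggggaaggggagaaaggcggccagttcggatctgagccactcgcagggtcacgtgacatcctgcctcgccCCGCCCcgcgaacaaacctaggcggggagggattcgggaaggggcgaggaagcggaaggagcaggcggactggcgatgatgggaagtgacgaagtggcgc
RAB5C: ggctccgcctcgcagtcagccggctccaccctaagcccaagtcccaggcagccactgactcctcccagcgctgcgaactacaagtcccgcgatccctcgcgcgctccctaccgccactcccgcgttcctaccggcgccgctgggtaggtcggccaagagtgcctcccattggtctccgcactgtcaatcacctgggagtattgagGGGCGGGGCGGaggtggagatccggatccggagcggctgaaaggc

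RAB14 held 1 GC box, RAB5A 1 and RAB5C 2, the last pair overlapping. The 1 ACAATG was in RAB5A, starting 212 bases before the annotated start, and ACAAAG was in none of the 3. Windows were at hand for 45 of the 57 members. ACAATG was in the window of 5 of these (11.1%), against 11.2% of 27305 genes. ACAAAG was in 3 (6.67%), against 16.3%. The GC box was in 38 (84.4%), against 46.2%, and the windows of members were richer in G and C, with a median of 64.8% against 58.0% for all windows. The 27305 genes are all those with a window and were not limited to the 19775 genes read or to genes past the filter. A gene counted if any of its windows held the match. These shares therefore do not show that the GC box is particular to RAB genes. A match is a description of these letters and not evidence of binding.

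Most RAB genes read much alike in both arrays. Of the 57 members, 46 passed the filter, and 37 of these differed by less than 1.5-fold. Of the 46, 2 were at least 2-fold higher in the Sox2 array (4.35%), none was at least 2-fold lower, and 44 differed by less. Over all 14253 genes past the filter, 2.05% were at least 2-fold higher and 0.645% at least 2-fold lower, and the RAB share rests on 2 genes. The median difference of the 46 members was 0.03, against -0.003 for all genes, and 24 of them lay above 0 (52.2%, against 49.6% of all genes). At a size of 1.5-fold, 5 members were higher (10.9%, against 6.46% of all genes) and 4 lower (8.70%, against 3.77%). The differences of members ranged from -0.90 to 1.18, with a robust SD of 0.45, against 0.28 for all genes.

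**Figure D1:**
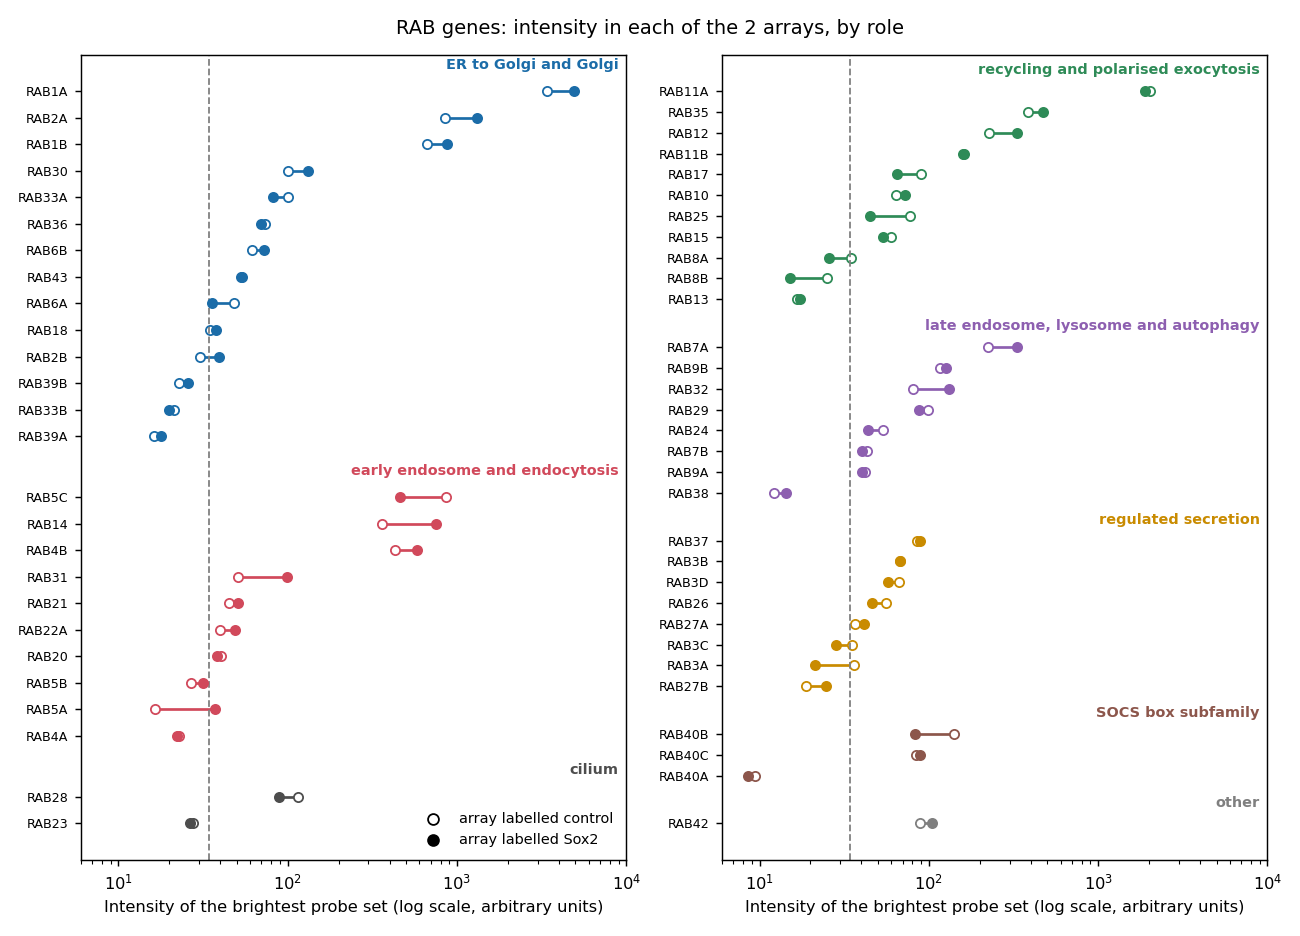
Intensity of each of the 57 RAB genes in the control array (open circles) and the Sox2 array (filled circles), on a log scale in arbitrary units, grouped by role. The dashed line is the filter at 34.25; most pairs of circles lie close together, and the widest gaps are those of RAB5A, RAB14, RAB31 and RAB5C.

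The 11 members under the filter were RAB4A, RAB5B, RAB8B, RAB13, RAB23, RAB27B, RAB33B, RAB38, RAB39A, RAB39B and RAB40A. They lay between 8.50 and 31.7 in the Sox2 array and between 9.44 and 27.4 in the other, and differed by at most 0.72, the size of the difference of RAB8B. A dim probe set does not show that the gene is silent. Another 5 members, RAB2B, RAB3A, RAB3C, RAB5A and RAB8A, passed in 1 array only. Such a member had to differ to some degree, so the count was also taken over the 41 members past the filter in both arrays. Of these 1, RAB14, was counted as higher and none as lower. The share of all genes under this stricter filter was not taken, so whether 1 of 41 is usual cannot be said.

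Among RAB probe sets that name 1 gene, the largest differences in both directions past the filter were those of early endosome members. Of 8 members with this role past the filter, 2 were at least 2-fold higher, against 2.05% of all genes, and 6 under 2-fold. One of the 2, RAB5A, passed the filter through the Sox2 array alone, where it was high. The median difference of the 8 was 0.36, with 6 above 0. It was 0.25 with all probe sets of a gene averaged, again with 6 above 0. Over second brightest probe sets, which 7 of the 8 have and of which 4 were under the filter, it was -0.15. Of those 7, 2 lay above 0.

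RAB14 moves cargo between the Golgi and early endosomes. It read 748 in the Sox2 array and 360 in the other, a difference of 1.06 or 2.08-fold, higher in the Sox2 array. A second probe set past the filter agreed in direction, at 106 and 61.3 (0.80), while the last was dim in both arrays, at 6.63 and 6.31. The difference was 0.91 after lowess centring and 0.81 after quantile normalization, which takes RAB14 out of the count.

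RAB5A and RAB5C are closely related GTPases that drive fusion of early endosomes, and they were read in opposite directions. RAB5A had 37.1 in the Sox2 array and 16.4 in the other, 2.26-fold higher (1.18). Its other probe sets were dimmer and did not follow: 1 read 7.03 and 8.69 (-0.31) and the last 4.07 and 3.67 (0.15). The call for RAB5A thus rests on 1 probe set that lies near the filter in the Sox2 array and under it in the control.

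RAB5C had 460 in the Sox2 array and 860 in the other, 1.87-fold lower (-0.90), the largest difference downward among members. Its second probe set read 34.2 and 37.9 (-0.15). Lowess centring and quantile normalization moved RAB5C past 2-fold, to -1.06 and -1.11. RAB5B, the remaining member of this subfamily, was under the filter at 31.7 and 27.0 (0.23).

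RAB31, which acts between the trans-Golgi network and endosomes, had probe sets that disagreed. The brightest read 99.2 and 51.2, 1.94-fold higher in the Sox2 array (0.96). The next read 38.5 and 70.0, lower in that array (-0.86), and the dimmest 17.0 and 13.2 (0.37). No direction can be given for RAB31 from these values.

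RAB4B, a GTPase of rapid recycling, read 578 and 431 by the only probe set that names it alone (0.42). A probe set that names RAB4B together with the readthrough gene MIA-RAB4B went the other way, at 197 and 398 (-1.02). The 3 other probe sets that name RAB4B with further genes differed by 0.001, -0.40 and -0.34. RAB21, of integrin endocytosis, differed by 0.17, RAB22A by 0.29 and RAB20 by -0.08.

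**Figure D2:**
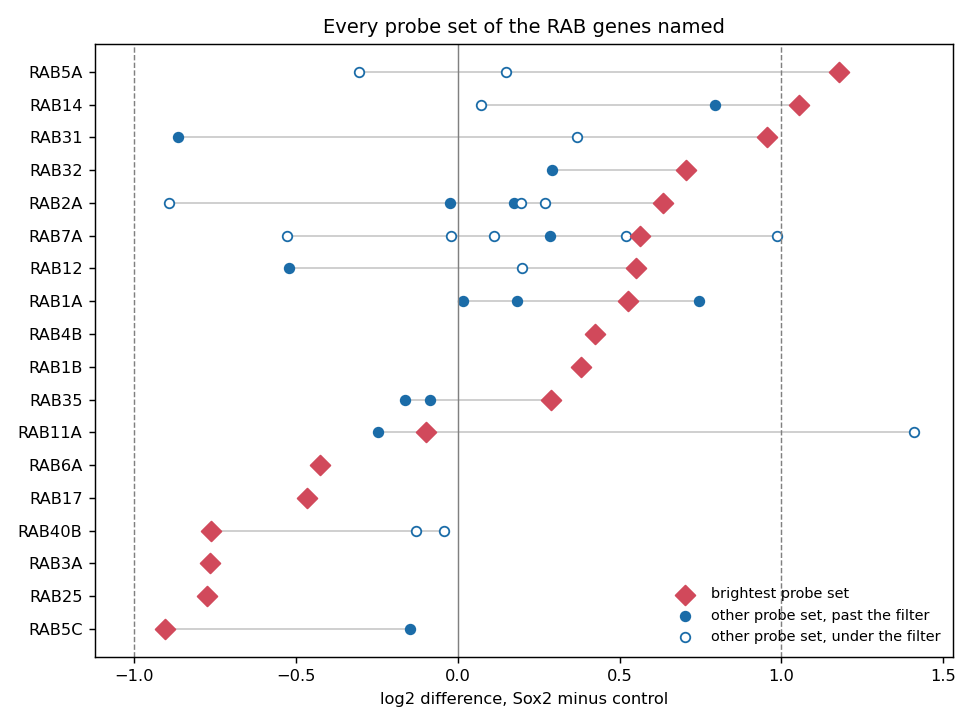
The log2 difference (Sox2 array minus control) of every probe set of the 18 RAB genes named by rule. Red diamonds are the brightest probe set, blue circles the others (filled past the filter, open under it), and dashed lines mark 2-fold; the probe sets of RAB31 and RAB12 lie on both sides of 0, while those of RAB1A, RAB32 and RAB14 lie above it.

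Early secretory and Golgi RAB genes held some of the brightest members. None of the 11 past the filter reached 2-fold, 7 lay above 0, and the median difference was 0.25. The median was 0.06 with all probe sets of a gene averaged, with 6 above 0. Over second brightest probe sets, which only 5 of the 11 have, it was 0.39, with 3 above 0. With shared probe sets counted for the RAB gene they name, a choice made after seeing the data, it was 0.37, with 8 of 11 above 0.

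RAB1A, which starts transport from the endoplasmic reticulum to the Golgi, read 4912 in the Sox2 array and 3414 in the other (0.53). Its 3 other probe sets also lay above 0, by 0.75, 0.18 and 0.02. RAB1B, its close relative, read 868 and 667 (0.38) by its only probe set. RAB2A, of traffic between the Golgi and the endoplasmic reticulum, read 1315 and 847 (0.63). Its next probe set read 300 and 305 (-0.02), so the brightest 2 do not give the same difference.

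RAB6A, of retrograde Golgi transport, shows how much the choice of probe set matters. By the only probe set that names it alone it read 35.9 and 48.3 (-0.43), near the filter. Probe sets that it shares with its copies RAB6C and RAB6D were brighter and differed the other way: 1397 and 786 for the one naming all 3 (0.83), and 685 and 269 for another naming RAB6D and RAB6A (1.35). A further one read 62.3 and 68.6 (-0.14), and a dim one 11.8 and 6.10. Because these probe sets cannot separate the copies, RAB6A is uncertain. Among the other Golgi members, RAB30 differed by 0.39 by both of its brightest probe sets and RAB33A by -0.28.

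Recycling and polarised exocytosis was the role of 9 members past the filter. None reached 2-fold, 4 lay above 0, and the median difference was -0.10. With all probe sets of a gene averaged it turned to 0.01, with 5 of 9 above 0. RAB11A, the GTPase of the recycling endosome, read 1883 in the Sox2 array and 2017 in the other (-0.10), and its second probe set past the filter read 33.5 and 39.7 (-0.25). RAB11B read 160 in both arrays, with a difference of 0.006. RAB25, the member of the RAB11 subfamily found in epithelia, read 45.1 and 77.1, 1.71-fold lower in the Sox2 array (-0.77), by its only probe set. It thus differed more than RAB11A and RAB11B, though without replicates that gap was not tested. RAB25 lay no higher than the leukocyte and endothelial markers past the filter, which read 65.3 to 82.0. Whether its values stand above background was not tested.

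RAB17, another epithelial GTPase, of transcytosis, read 64.9 and 89.7 (-0.47) by its only probe set. These values too lay near the 65.3 to 82.0 of the leukocyte and endothelial markers past the filter. RAB35, of fast recycling to the plasma membrane, read 470 and 384 (0.29), while its other probe sets read 62.6 and 66.4 (-0.08) and 44.4 and 49.7 (-0.16). RAB12, of transferrin receptor turnover, read 331 and 226 (0.55) by a probe set of a type that may cross-hybridise, but 34.9 and 50.1 (-0.52) by its second. RAB8A and RAB10, of polarised exocytosis, differed by -0.42 and 0.19.

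Late endosome, lysosome and autophagy members were 7 past the filter, of which none reached 2-fold and 3 lay above 0, with a median difference of -0.07. Over second probe sets, which only 4 of the 7 have, the median was 0.15, with 3 above 0. The 2 medians cover different sets of genes, so no change of direction can be read from them. The 4 are RAB7A, RAB7B, RAB29 and RAB32, at 0.56, -0.10, -0.17 and 0.71 by their brightest probe sets. The second probe sets of RAB7B and RAB29 were under the filter. RAB7A, which drives late endosome maturation and fusion with lysosomes, read 330 in the Sox2 array and 223 in the other (0.56). Its second probe set read 47.5 and 39.0 (0.28), and its 5 probe sets under the filter ranged from -0.53 to 0.99. RAB32, of lysosome-related organelles, read 131 and 80.5 (0.71) and 83.7 and 68.4 (0.29) by its second probe set, so both lay above 0. RAB24 differed by -0.29, RAB29 by -0.17, and RAB9A, RAB9B and RAB7B by at most 0.12 in either direction.

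Regulated secretion, the role for which zymogen and hormone secreting cells use RAB3 and RAB27, was covered by 7 members past the filter. None reached 2-fold, 2 lay above 0, and the median difference was -0.23. All 7 read at most 88.9 in the Sox2 array and 85.7 in the control array. That is near or below the 65.3 to 82.0 of the leukocyte and endothelial markers past the filter. Whether the values of this group stand above background was not tested. The median was -0.09 with all probe sets of a gene averaged and turned to 0.05 over the 5 members with a second probe set. The second probe sets of RAB27A, RAB3B and RAB3C were under the filter. RAB3A, best known from synaptic vesicles, read 21.3 and 36.2 (-0.77), under the filter in the Sox2 array. RAB3D, of zymogen granules, read 57.02 and 66.74 (-0.23), with 39.4 and 38.0 (0.05) by its second probe set, and RAB3B read 67.9 and 68.0 (-0.001). RAB27A, of granule docking, read 41.6 and 36.6 (0.18). RAB26, of zymogen granule maturation, differed by -0.26 and -0.29 by its 2 probe sets.

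The small remaining groups held RAB40B, whose product carries a SOCS box and works with a ubiquitin ligase. It read 82.6 in the Sox2 array and 140 in the other, 1.70-fold lower (-0.76), by a probe set of a type that may cross-hybridise. Its other probe sets, under the filter, differed by -0.04 and -0.13. RAB40C read 89.0 and 84.0 (0.08). RAB28, of cilia and photoreceptors, read 88.4 and 115 (-0.38), and RAB42 read 104 and 89.0 (0.23).

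**Figure D3:**
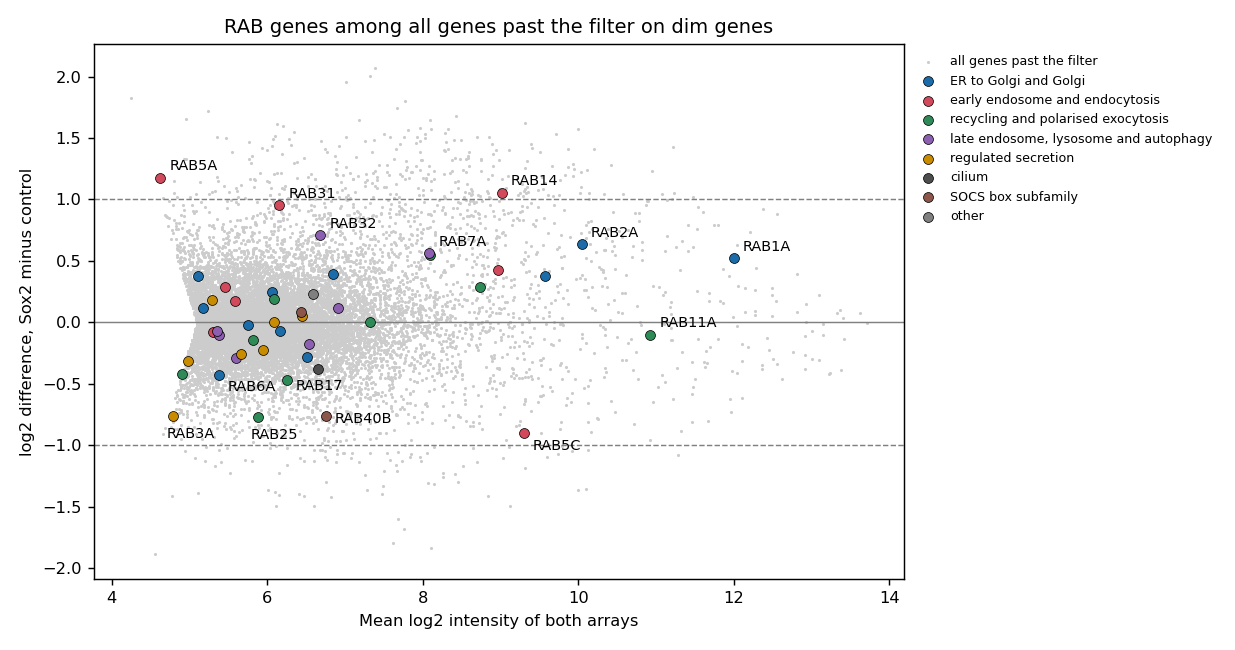
Difference between the arrays (log2, Sox2 minus control) against the mean log2 intensity for the 46 RAB genes past the filter (coloured by role) and all 14253 genes past it (grey), with 2-fold as dashed lines. The brightest RAB genes lie mostly above 0, with RAB5C and RAB11A below it.

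Brighter members lay above 0 more often than dimmer ones. Chosen after the values were seen, the members among the brightest, past the 95th percentile of probe sets, were 11 of 46 (23.9%), against 13.5% of all genes past the filter. These were RAB1A, RAB1B, RAB2A, RAB4B, RAB5C, RAB7A, RAB11A, RAB11B, RAB12, RAB14 and RAB35. Of them 9 lay above 0, with a median of 0.42, against 57.2% above 0 and a median of 0.07 for all 1924 genes this bright. The median was 0.28 after lowess centring and 0.21 after quantile normalization, with 8 above 0 under each. It was -0.02 over the 9 with a second probe set, of which 4 lay above 0. Among all genes this bright 9.10% were at least 2-fold higher and 2.29% lower, while of the 11 members 1 was higher and none lower. The other 35 members had a median of -0.07, with 15 above 0. The dimmer members spread more than other genes in that range, with a robust SD of 0.37 against 0.26. For the 11 bright ones it was 0.21 against 0.51, but this measure gives little weight to extremes. They ranged from -0.90 (RAB5C) to 1.06 (RAB14).

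Agreement in direction among probe sets of 1 gene could be read only where several passed the filter, which held for 19 members. For 12 of these all lay on the same side of 0 (63.2%), against 43.1% of 5495 genes. Probe sets under the filter were left out of this count. Members were also somewhat longer than other genes, with a median genomic length of 32296 bases against 24437. Across the 46 members the difference correlated with log2 length at a Pearson r of 0.20, and across 14231 genes at 0.16. These points share the 2 arrays and are not independent replicates. The part of length in the differences was not tested beyond removing its trend, which left RAB14 and RAB5A as the members counted as higher and none as lower.

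**Figure D4:**
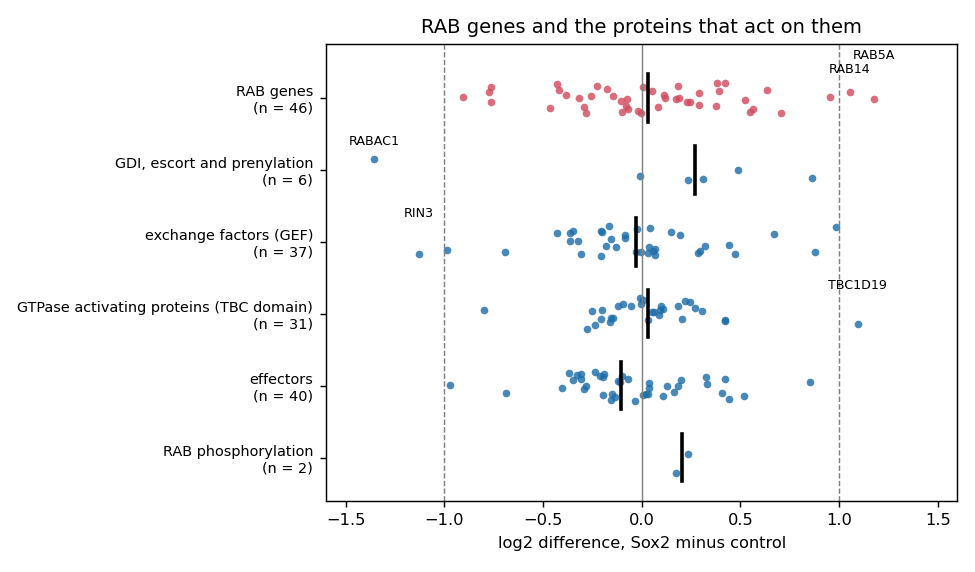
Log2 difference (Sox2 array minus control) of RAB genes and of 5 lists of genes whose products act on RAB proteins, for genes past the filter. Each point is a gene, the black bar the median, the dashed lines 2-fold; RABAC1, RIN3 and TBC1D19 are the genes of the lists beyond 2-fold.

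Genes whose products act on RAB proteins were described with the same rule. Over all 14253 genes past the filter, 2.05% were at least 2-fold higher and 0.645% at least 2-fold lower. No list held more than 1 gene counted in either direction. Of the GDP dissociation inhibitors, escort proteins and prenylation enzymes, 6 of 8 had a probe set and all 6 passed the filter, with none higher, 1 lower and a median of 0.27. RABAC1, the prenylated RAB acceptor of Golgi membranes, read 688 in the Sox2 array and 1763 in the other, 2.56-fold lower (-1.36), by its only probe set. GDI2, the dissociation inhibitor that extracts RAB proteins from membranes, read 328 and 180 (0.87) but 36.5 and 36.0 (0.02) by its second probe set.

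Of 37 exchange factors past the filter, none was at least 2-fold higher and 1 lower, with a median of -0.03. RIN3, which activates RAB5 and RAB31, read 65.8 and 144, 2.18-fold lower (-1.13). Its 5 other probe sets past the filter ranged from -0.39 to 0.20.

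Of 31 TBC domain proteins past the filter, which switch RAB proteins off, 1 was higher, none was lower, and the median was 0.03. TBC1D19 read 187 and 87.4, 2.14-fold higher (1.09), by its only probe set. Of 40 effectors, none reached 2-fold, and the median was -0.11. The effector with the largest difference was RAB11FIP3, a RAB11 partner in recycling and cell division, at 40.1 and 78.7 (-0.97), but its second probe set read 41.0 and 40.7 (0.01). Of the enzymes that phosphorylate or dephosphorylate RAB proteins, LRRK1 differed by 0.23 and PPM1H by 0.17, and LRRK2 was under the filter. RAB-like genes outside the naming rule had 3 of 7 members past the filter, with differences from -0.32 to 0.04.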

How the data were processed

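Total RNA was labelled as biotinylated cRNA and read on 1 Affymetrix array per sample. The authors deposited probe set intensities on a linear scale. The submitters' processing notes name RMA and no other tool, with neither a version nor settings. The arrays had medians of 34.25 and 34.26, and no detection call was made. Intensities were taken to log2 with no further scaling. Control probe sets and probe sets naming several genes or none entered no gene value.

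The members, role groups and gene lists were chosen with earlier results of these data known. Named members were the 10 brightest, the 6 most different in each direction past the filter, any member at least 2-fold different, and RAB25, and in each role group the brightest and most different could be added. Some further members are named only to complete a group. From the other lists, up to 4 genes at least 2-fold different or else the most different were named. RABGAP1 was in both the TBC domain and the effector list.

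Alternatives changed the probe set, the filter, the scaling (lowess span 0.3), a pseudocount of 16, the length trend and the fold size. The number of arrays limits all precision. Counting was tested on simulated data, with noise smaller than the technical SD here and all probe sets of a gene changed alike. It therefore does not show how reliable a 2-fold count is in these data. Python 3.11.15, numpy 2.4.6, pandas 2.3.3, statsmodels 0.14.6 and matplotlib 3.10.9 were used.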

Additional observations from a re-analysis of the deposited data

Results flagged for a closer look

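A signal outside the gene values was read by a probe set that names both RAB6D and RAB6A. It was higher in the Sox2 array, at 685 against 269 in the control array, a log2 difference of 1.35 or 2.54-fold. Whether it reads RAB6A or a copy was not tested.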

How the results depend on the processing

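RAB genes counted as at least 2-fold higher numbered 2 of 46, against 2.05% of all genes past the filter. With averaged probe sets the count was 0 of 34, against 0.564%. With the second brightest probe set it was 0 of 19, against 1.75%. Without _x_at and _s_at probe sets it was 1 of 33, against 1.56%. The filter at the 75th percentile gave 1 of 29, against 3.08%, and the filter on the mean level 1 of 42, against 2.06%. It was 1 of 46 with lowess centring (1.71% of all genes), quantile normalization (1.49%) or a pseudocount of 16 (1.46%). At 1.5-fold it was 5 of 46, against 6.46%. The count of lower members was 0, but 1 (RAB5C) with lowess centring and quantile normalization, against 0.716% and 0.821% of all genes. At 1.5-fold 4 were lower, against 3.77%. The median difference of 0.03 became -0.043 with averaged probe sets, -0.023 with the second brightest, -0.067 without the _x_at and _s_at sets and 0.12 with the filter at the 75th percentile. RAB5A became -0.31 with its second brightest probe set. The 3 pathway genes at least 2-fold different became 0 with the second brightest probe set, 1 with a pseudocount of 16 and 13 at 1.5-fold. Causes were not tested. Filters cannot change the value of 1 gene, nor can the choice of probe set for the 6 named members with 1 probe set. Without these, 97 of 123 values of the 18 named members moved by less than the technical SD. That count includes median centring, which takes the same -0.003 from every gene and so could move none of them that far. The values that moved further did so with another choice of probe set, except RAB3A and RAB5A with a pseudocount of 16. Of the 12 named members with several probe sets, 6 kept their sign. Counting shared probe sets for the RAB gene they name, added after seeing the data, left the counts at 2 and 0. The pathway counts under the alternatives were also added then. Current symbols added no member. No paired analysis was possible because there is 1 array per group.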
